A study of Mus musculus with 24 samples.

Results

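The collagen and laminin genes encode the fibres, networks and sheets of the extracellular matrix, and their promoters were examined for H3K27me3, the trimethyl mark on lysine 27 of histone H3, in cultured mouse cerebellar granule neurons (CGNs). Members were the protein-coding genes of the GENCODE annotation of mm10 named Col, a number, a and a number, or Lama, Lamb or Lamc and a number. This gave 55 of 21938 protein-coding genes, of which 44 were collagens and 11 laminins. The promoter of a gene was taken as the 6 kb window reaching 3 kb to each side of its annotated 5' end, and "coverage" below is the percentage of that window lying under the peaks of a library. The 24 CUT&RUN libraries formed 8 groups of 3. All came from granule neuron progenitors of CD1-IGS pups of both sexes, taken at postnatal days 6 to 8 and enriched on a Percoll gradient, and a replicate is a culture from pooled litters. There were 12 untreated libraries, harvested after 1, 3, 5 or 7 days in vitro (DIV1 to DIV7). In the inhibitor experiments the cells received 5 µM GSK-126, which inhibits the methyltransferase EZH2, or 1 µM GSK-J4, which inhibits the demethylases KDM6A and KDM6B, on DIV1 and were harvested on DIV5, each with 3 DMSO libraries of its own. AraC, which stops the division of contaminating cells, was given to all cultures at 1 µM on DIV2. The DIV1 libraries were harvested before that, so that time in culture and AraC cannot be told apart where DIV1 is compared.

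A collagen is built from alpha chains wound into a triple helix. Fibrillar collagens assemble into the cables of skin, bone and cartilage, fibril-associated collagens decorate those cables, and network-forming collagens make sheets. A laminin is a trimer of an alpha, a beta and a gamma chain that polymerises in the basement membrane, to which collagen IV, nidogens and perlecan are tied. In the brain most of this matrix is made by meningeal and vascular cells, while neurons meet it at the pial surface, where progenitors of granule neurons proliferate during development. H3K27me3 is deposited by the Polycomb repressive complex PRC2, whose catalytic subunit is EZH2, and typically lies over CpG-rich promoters of genes of other lineages that a cell keeps silent.

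The stretches on which the peaks of 5 members converged are given first. Each is the 200 bases of mm10, read 5' to 3' on the strand of the gene, centred on the position covered by a peak in the largest number of libraries, and CpG dinucleotides are in capitals. Col18a1, Lama1 and Col12a1 are shown as promoters with little or no coverage after GSK-126, and Col14a1 and Col26a1 as promoters where a peak was still called in all 3 GSK-126 libraries.
Col18a1, chr10:77165753-77165952, minus strand: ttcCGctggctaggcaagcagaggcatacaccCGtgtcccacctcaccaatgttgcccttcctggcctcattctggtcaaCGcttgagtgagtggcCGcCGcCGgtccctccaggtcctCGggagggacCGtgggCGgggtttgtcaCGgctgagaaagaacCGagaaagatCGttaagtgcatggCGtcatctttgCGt
Lama1, chr17:67697645-67697844, plus strand: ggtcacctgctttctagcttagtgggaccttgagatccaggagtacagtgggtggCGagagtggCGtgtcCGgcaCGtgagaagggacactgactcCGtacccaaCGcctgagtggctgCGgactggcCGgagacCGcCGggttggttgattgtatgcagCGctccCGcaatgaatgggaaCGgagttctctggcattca
Col12a1, chr9:79719698-79719897, minus strand: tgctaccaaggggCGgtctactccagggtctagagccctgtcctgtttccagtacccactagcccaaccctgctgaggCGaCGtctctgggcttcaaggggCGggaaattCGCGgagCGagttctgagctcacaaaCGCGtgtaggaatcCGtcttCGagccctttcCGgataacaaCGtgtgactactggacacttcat
Col14a1, chr15:55308206-55308405, plus strand: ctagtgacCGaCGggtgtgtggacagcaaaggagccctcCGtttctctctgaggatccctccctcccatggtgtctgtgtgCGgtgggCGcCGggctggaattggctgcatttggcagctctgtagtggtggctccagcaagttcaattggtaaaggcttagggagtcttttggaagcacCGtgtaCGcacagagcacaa
Col26a1, chr5:136883652-136883851, minus strand: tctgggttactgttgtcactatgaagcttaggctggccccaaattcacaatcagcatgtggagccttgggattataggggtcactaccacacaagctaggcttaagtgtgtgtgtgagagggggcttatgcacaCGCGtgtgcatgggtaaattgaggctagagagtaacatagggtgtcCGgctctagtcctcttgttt

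The Col18a1, Lama1 and Col14a1 stretches lie inside the gene, downstream of the 5' end and outside annotated exons. Those of Col12a1 and Col26a1 lie upstream of the 5' end. The shared position of Col12a1, at −967 bp, was covered in 2 DMSO libraries of the GSK-126 experiment and in 1 GSK-126 library. At 25 bp downstream of its 5' end 3 of these DMSO libraries and 0 GSK-126 libraries had a peak, so its stretch is not where the groups differed most. No stretch overlaps an annotated untranslated region. They hold 14 CpG in Col18a1, 13 in Lama1, 13 in Col12a1, 8 in Col14a1 and 3 in Col26a1. CG reads the same on both strands, so each site was counted once. Of all promoters, 11.8% hold as many CpG as Col18a1 at the same distance from the 5' end, against 23.8% for Lama1, 1.61% for Col12a1, 34.1% for Col14a1 and 48.9% for Col26a1. The 3 promoters low after GSK-126 thus have more CpG at this place than the 2 others, which is a description of 5 chosen stretches. In the 1 kb centred on the 5' end this order did not hold. There the observed to expected CpG ratio of Col18a1 (0.4995) lay below those of Col14a1 (0.532) and Col26a1. The ratio of Lama1 (0.604) lay just above that of Col26a1, and Col12a1 had the highest of the 5 (0.754). Whether CpG content goes with loss after GSK-126 was not tested.

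The libraries differed widely in how much was called, which bears on every comparison. They held 4740 to 22832 peaks covering 1.07 to 6.57 Mb, and 1348 to 3832 promoters had a peak. Read depth is unknown. GSK-126 replicate 3 stood apart, with 3285 promoters with a peak from 1.63 Mb, of which 1551 had a peak in no other library. Its promoters with a peak included 14 members (0.426%), against 0.890% and 0.983% of the promoters in the other GSK-126 libraries and 0.811% to 0.849% in their DMSO libraries. Promoters of granule neuron markers carried few peaks: 4 of 10 had one in any library and none in 12 or more, with Neurod1 in 5 libraries and Zic1, Pax6 and Barhl1 in 0. Of 12 glial and microglial markers 4 had a peak in any library, with Mbp in 14 and Gfap in 0, and of 10 vascular and meningeal markers 6 did, with Cldn5 in 24, Kdr in 14 and Lum and Dcn in 0. Since the mark goes with silent genes, these counts do not measure which cells were present.

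Peaks were called more often at collagen and laminin promoters than at promoters in general. A peak in at least 1 of the 24 libraries was found at 38 of the 55 members (69.1%), against 38.0% of all protein-coding promoters. In 12 or more libraries there were 22 members (40.0%, against 9.45%), and in 20 or more there were 17 (30.9%, against 4.49%). Col23a1, a transmembrane collagen, was among those with a peak in every library. The remaining 17 members had no promoter peak in any library, which places them below the peak caller's threshold and does not show that they lack the mark. A culture holds many cells, and fewer cells carrying the mark cannot be told apart from less mark per cell. With peaks limited to a −log10 q of at least 2, 22 members had a peak in any library and 0 had one in 12 or more, so that recurrence rested in part on weak calls.

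**Figure D1:**
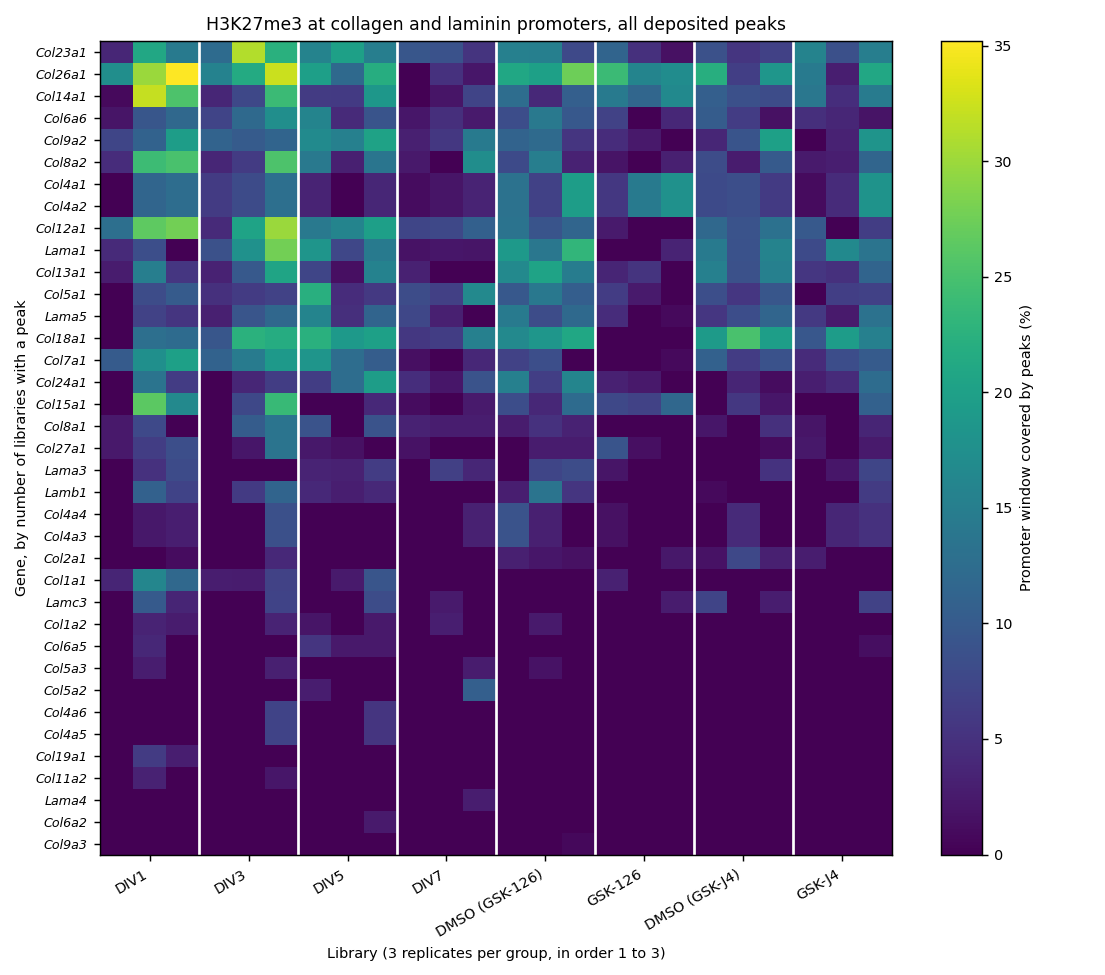
Coverage of the promoter window by peaks (colour, percent) in each of the 24 libraries (horizontal axis, by group) for members with a peak in any library (vertical axis, ordered by the number of libraries with a peak), from all deposited peaks. Col23a1 at the top is covered in all 24 libraries, the GSK-126 columns are at 0 for Col18a1, and the DIV7 columns are low for Col26a1 and Lama1.

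Recurrence varied widely within the network-forming collagens. Of 9 network-forming collagens 8 had a peak in any library and 4 in 12 or more. Col4a1 (chromosome 8, 11198423 to 11312826, minus strand) and Col4a2 (chromosome 8, 11312805 to 11449287, plus strand), the chains of the collagen IV found in nearly all basement membranes, are arranged head to head, and their 5' ends at 11312826 and 11312805 give overlapping windows with the same coverage in each library. They had a peak in 22 libraries and give a single observation, although the counts and shares of members include both genes of each shared window. Col4a3 and Col4a4, the chains of kidney, lung and cochlear basement membranes, share a window in the same way and had a peak in 10 libraries, while the pair Col4a5 and Col4a6 on the X chromosome had a peak in 2. Col8a2 (chromosome 4, 126286793 to 126314330, plus strand), a short-chain collagen of the cornea, had a peak in 22 and its partner Col8a1 in 16. Both multiplexins, proteoglycan collagens of basement membranes, were recurrent, with Col18a1 (chromosome 10, 77052178 to 77166548, minus strand), the precursor of endostatin, in 20 libraries and Col15a1 in 16.

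Laminin chains differed within each class. Of the alpha chains Lama1 (chromosome 17, 67697259 to 67822647, plus strand), the chain of the early embryonic and pial laminin, had a peak in 21 libraries, Lama5 (chromosome 2, 180176373 to 180225859, minus strand), the chain of most adult basement membranes, in 21, Lama3 in 13, Lama4 in 1 and Lama2, the muscle and Schwann cell chain, in 0. Of the beta chains only Lamb1 had a peak, in 12 libraries, and Lamb2 and Lamb3 had none. Of the gamma chains Lamc3 had a peak in 9 libraries. Lamc1, the gamma chain shared by most laminins, had none. Its promoter is nonetheless rich in CpG. The observed to expected CpG ratio was 0.787 in the 1 kb centred on the 5' end, the highest among the 17 members without a peak.

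Among the fibrillar collagens 9 of 11 had a peak in any library but only 3 in 12 or more, namely Col5a1 (chromosome 2, 27886425 to 28039514, plus strand), which sets the width of collagen I fibrils, in 21, Col24a1 (chromosome 3, 145292472 to 145552011, plus strand), a minor fibrillar collagen of bone, in 20 and Col27a1, of cartilage, in 15. The major fibrillar genes were marked less often. Col2a1 of cartilage had a peak in 10 libraries, Col1a1 (chromosome 11, 94936224 to 94953042, plus strand) in 9 and Col1a2 in 7, and Col3a1 and Col11a1 had none. Of 9 fibril-associated collagens 5 had a peak in any library, and Col14a1 (chromosome 15, 55307750 to 55520803, plus strand) in 23, Col9a2 (chromosome 4, 121039385 to 121055322, plus strand), of cartilage, in 22 and Col12a1 (chromosome 9, 79598991 to 79718831, minus strand) in 21 of the 24. Col12a1 and Col14a1 are close relatives that both bind collagen I fibrils. Of the 9 beaded-filament and anchoring collagens, with which Col26a1 was grouped, 5 had a peak in any library. These included Col26a1 (chromosome 5, 136741759 to 136883209, minus strand) in 23 libraries, Col6a6 (chromosome 9, 105687809 to 105828160, minus strand), a collagen VI chain, in 23 and Col7a1, which forms the anchoring fibrils of skin, in 20. The major collagen VI chains Col6a1 and Col6a3 had none, and Col6a2 had a peak in 1. Of the 4 transmembrane collagens, Col23a1 (chromosome 11, 51289920 to 51583918, plus strand) had a peak in 24 and Col13a1 (chromosome 10, 61838236 to 61979108, minus strand), found at neuromuscular junctions, in 21, and Col17a1 and Col25a1 in 0. Members not named so far were Col6a5 with a peak in 5 libraries, Col5a3 in 4, Col5a2, Col19a1 and Col11a2 in 2 each, Col9a3 in 1, and Col9a1, Col10a1, Col16a1, Col20a1, Col22a1, Col28a1 and Col6a4 in 0.

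Coverage over the 24 libraries was highest at Col26a1 (mean 17.7%), and the mean was also above 10% at Col18a1 (13.9%), Col23a1 (12.4%), Col12a1 (11.9%), Col14a1 (11.02%) and Lama1 (10.4%). The 739 peaks in member windows had a median length of 256 bp, against 173 bp for all 247296 peaks, and their median fold enrichment over the caller's background was 3.45, against 3.82. Of the 45 member peaks of 1 kb or longer, 11 were at Col18a1 and 5 at Col9a2. CpG content went with recurrence among the members. The median observed to expected CpG ratio was 0.605 for the 17 members with a peak in 20 or more libraries, 0.447 for the 21 with a peak in 1 to 19 and 0.262 for the 17 with none. Over all promoters the same classes had medians of 0.605, 0.641 and 0.432. Members with few or no peaks were thus poorer in CpG than other promoters of the same class.

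Within the window the peaks lay close to the 5' end, most often just downstream of it. For the 22 members with a peak in 12 or more libraries, which form 21 separate windows, the position covered in most libraries lay downstream in 15 windows and upstream in 6, and within 1 kb in 20. In 12 windows it was 300 to 1000 bp downstream. It ranged from −967 bp, upstream of Col12a1, to 1032 bp, downstream of the Col13a1 start. At Col23a1 all 24 libraries had a peak over the base 767 bp downstream. At Col18a1 the shared position, 695 bp downstream, was covered in 19 libraries, among them 3 of 3 DMSO and 0 of 3 GSK-126 libraries. At Col14a1 it lay 556 bp downstream and was covered in 20 libraries, among them all 3 DMSO and all 3 GSK-126 libraries. Beyond the window, the share of the gene body under peaks was low, measured against lengths of up to 637 kb. The mean coverage of gene bodies was at most 2.49%, at Col8a2, where 22 libraries had a peak in the gene body. At 10 members 12 or more libraries had such a peak. Among them were Lama1 in all 24 libraries, those with GSK-126 included, Col14a1 in 22 and Col13a1 in 21. Of the 17 members with no promoter peak, 8 had a peak in the gene body in some library, and Col6a4 had one in 17 libraries with a mean coverage of 0.344%.

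**Figure D2:**
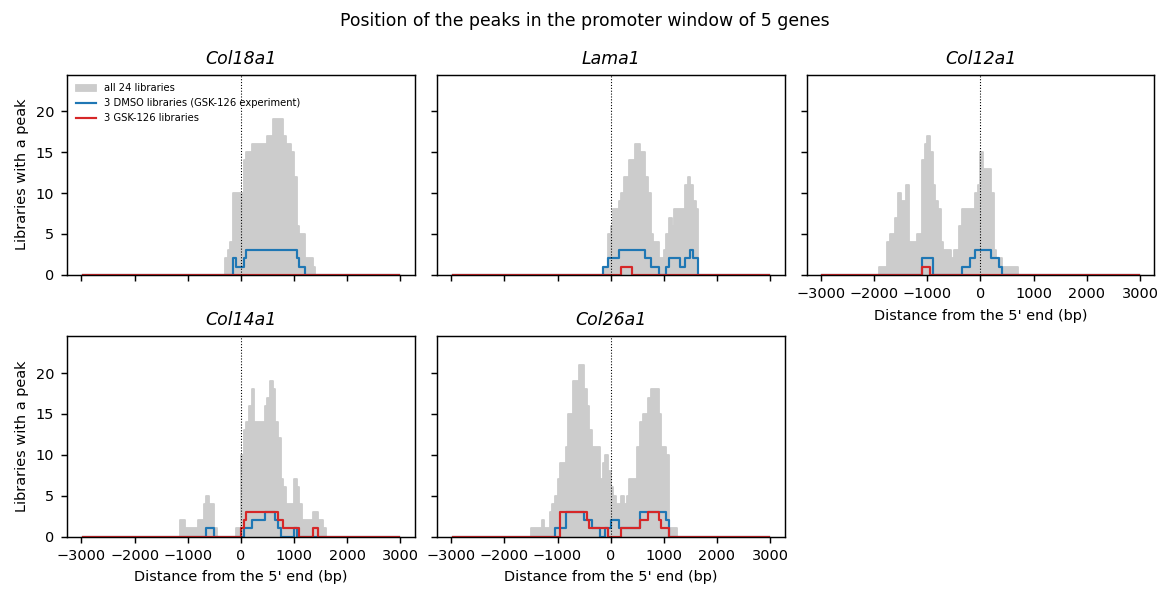
Number of libraries with a peak (vertical axis) against distance from the annotated 5' end (horizontal axis, bp, negative upstream) for 5 members, with all 24 libraries in grey, the 3 DMSO libraries of the GSK-126 experiment in blue and the 3 GSK-126 libraries in red. Peaks of Col18a1 centre 695 bp downstream with no GSK-126 library, those of Col14a1 keep all 3 GSK-126 libraries at 556 bp, and Col26a1 has a peak cluster on each side of the 5' end.

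Mean coverage over the 55 members was 5.00% ± 2.95 at DIV1, 5.05% ± 2.93 at DIV3, 4.44% ± 1.24 at DIV5 and 1.87% ± 0.827 at DIV7 (SD, n = 3 each). It was 4.77% ± 0.180 with DMSO and 2.05% ± 0.320 with GSK-126, and 3.40% ± 0.376 with DMSO and 3.08% ± 1.61 with GSK-J4. Means over all promoters were 1.21%, 1.15%, 0.994% and 0.481% over the 4 days, 1.15% with DMSO against 0.542% with GSK-126, and 0.647% with DMSO against 0.715% with GSK-J4. Like those of the members, they were lowest at DIV7 over the 4 days and lower with GSK-126 than with DMSO. With GSK-J4 they were higher than with DMSO, while the members' mean was lower. The ratio of members to all promoters, 3.84 to 5.28 by group, was 4.18 ± 0.444 with DMSO and 4.05 ± 1.18 with GSK-126, a difference within the spread of the libraries. In the GSK-J4 experiment it was 5.28 ± 0.581 with DMSO and 4.33 ± 0.182 with GSK-J4. The libraries there did not overlap (4.846 to 5.938 against 4.195 to 4.539), and this difference was not tested. Members with a peak in all 3 libraries of a group numbered 12 at DIV1, 17 at DIV3, 18 at DIV5, 12 at DIV7, 20 with DMSO, 7 with GSK-126, 17 with DMSO and 14 with GSK-J4. Those with a peak in any of the 3 were 32, 31, 30, 28, 28, 24, 26 and 27, in the same order. Over all promoters 1376, 1354, 1589, 828, 1893, 815, 1205 and 1117 had a peak in all 3 libraries, and 4251, 4252, 3854, 2764, 4231, 4407, 2844 and 3119 in any. From DMSO to GSK-126 the count in all 3 libraries was thus lower for members and for all promoters, while the count in any library was lower for members and higher for all promoters. The latter count holds the 1551 promoters with a peak in GSK-126 replicate 3 and in no other library, of which 0 were members.

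The time course asked how the mark at these promoters changes as newly postmitotic CGNs mature. Because lists differed in length, the peaks of each library were limited to the strongest ones, up to the 1.11 Mb of the shortest list, and coverage by these peaks of a common length was tested with limma over all promoters covered in at least 3 of the 12 libraries. Of 18 members tested none was called in any of the 4 comparisons. The shares called over all 1795 promoters were also small, at 0.334% from DIV1 to DIV3, 0% from DIV3 to DIV5, 0.334% from DIV5 to DIV7 and 1.00% from DIV1 to DIV7. At an unadjusted p under 0.05 there were 2, 1, 1 and 3 members, beside 99 to 231 of all promoters. With all deposited peaks 29 members were tested and none was called either, against 0.223%, 0%, 0% and 1.12% of 3585 promoters, and 1, 2, 6 and 5 members had an unadjusted p under 0.05, beside 219, 107, 208 and 707 of all promoters.

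With all deposited peaks, the members with the lowest adjusted p from DIV1 to DIV7 were Col26a1 and Col7a1. Coverage of Col26a1 was 17.4%, 29.9% and 35.2% at DIV1, 15.6%, 21.5% and 32.5% at DIV3, 19.9%, 11.97% and 21.9% at DIV5 and 0%, 5.02% and 2.08% at DIV7. The DIV7 libraries lay below all earlier ones, and the mean at DIV7 differed from that at DIV1 by −25.2 percentage points (95% interval −36.7 to −13.6, limma, adjusted p = 0.0543). For Col7a1 the values were 10.2%, 17.6% and 20% at DIV1, 11.02%, 14.7% and 18.9% at DIV3, 18.4%, 12.6% and 10.3% at DIV5 and 1.45%, 0% and 3.93% at DIV7. Its DIV7 libraries again lay below the other 9, with a difference of −14.1 percentage points (95% interval −21.02 to −7.21, limma, adjusted p = 0.0682). Neither passed the threshold. Without DIV1 replicate 1, whose list is the shortest of its group at 1.33 Mb against 4.09 and 5.19 Mb, 8 of 29 members were called lower at DIV7, beside 19.3% of all 3495 promoters. Among the 8 were Col26a1, Col7a1, Col1a1, Col14a1 and the pair Col4a1 and Col4a2.

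Col1a1, a chain of the main collagen of skin and bone, had its peaks in the early libraries. Coverage was 3.58%, 16.1% and 11.9% at DIV1, 2.83%, 2.73% and 6.92% at DIV3, 0%, 2.58% and 9.28% at DIV5 and 0%, 0% and 0% at DIV7. All 3 DIV1 libraries had a peak and no DIV7 library did, and among the 12 inhibitor and DMSO libraries GSK-126 replicate 1 was alone in having a peak, at 3.28%. The difference between DIV7 and DIV1 was −10.6 percentage points (95% interval −17.8 to −3.33, limma, adjusted p = 0.141) with all peaks. When coverage was instead scaled by the length of each list, it was −3.22 percentage points (95% interval −4.797 to −1.65, limma, adjusted p = 0.0304), the single call among 29 members (3.45%), against 3.40% of all promoters called lower on this scale. The lists at DIV7 were 1.19 to 2.25 Mb long and those at DIV1 1.33 to 5.19 Mb, and the scaled differences of the genes above were, for Col26a1, −8.25 percentage points (limma adjusted p = 0.108) and, for Col7a1, −4.81 (adjusted p = 0.197).

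Among the fibril-associated collagens, Col12a1 had coverage of 12.8%, 26.4% and 27.8% at DIV1, 4.2%, 20.4% and 29.97% at DIV3, 14.2%, 15.9% and 19.9% at DIV5 and 7.3%, 7.68% and 10.8% at DIV7. Limited to the common length, Col12a1 stood at 12.8%, 18.9% and 27.8% at DIV1, 4.2%, 0% and 0% at DIV3, 0%, 0% and 0% at DIV5 and 3.62%, 7.68% and 0% at DIV7. Its DIV1 values were thus above all later ones in that setting, with a difference of −18.4 percentage points (95% interval −25.9 to −10.9, limma, adjusted p = 0.0554) from DIV1 to DIV3 and of −16.1 percentage points (95% interval −23.6 to −8.55, limma, adjusted p = 0.0621) from DIV1 to DIV7. In the full lists the DIV1 and DIV3 libraries overlapped. Coverage of Col14a1 was 0.95%, 32.1% and 25.3% at DIV1, 3.85%, 7.6% and 24% at DIV3, 6.17%, 5.98% and 18.7% at DIV5 and 0%, 1.97% and 7.17% at DIV7. It varied from 0.950% to 32.1% among replicates of DIV1, and DIV1 and DIV7 overlapped, with a difference of −16.4 percentage points (95% interval −33.98 to 1.14, limma, adjusted p = 0.281). Col9a2 had 7.38%, 11.1% and 19.6% at DIV1, 11.2%, 10.1% and 11.3% at DIV3, 16.9%, 15.4% and 20.2% at DIV5 and 3.13%, 5.67% and 14.5% at DIV7. Its DIV5 libraries were higher than those of DIV7, and DIV1 and DIV7 overlapped.

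The means of Lama1 and Col18a1 were higher at DIV3 and DIV5 than at DIV1, unlike those of Col1a1. The courses of these genes were not compared by a test. Coverage of Lama1 was 4.23%, 8.47% and 0% at DIV1, 8.75%, 17.8% and 27.8% at DIV3, 18.3%, 7.48% and 14.6% at DIV5 and 1.68%, 2.2% and 1.97% at DIV7. Its DIV3 libraries lay above those of DIV1, by 13.9 percentage points (95% interval 3.92 to 23.8, limma, adjusted p = 0.477). Its 3 DIV7 libraries lay below those of DIV5, with a difference of −11.5 percentage points (95% interval −21.4 to −1.58, limma, adjusted p = 0.779). Neither step was called. For Col18a1 the values were 0%, 12.8% and 12.4% at DIV1, 9.42%, 22.4% and 21.9% at DIV3, 22.3%, 19.1% and 20.1% at DIV5 and 5.65%, 6.42% and 15.4% at DIV7. The mean was highest at DIV5, and DIV1 and DIV7 overlapped, with a difference of 0.744 percentage points (95% interval −9.22 to 10.7, limma, adjusted p = 0.943). Lama5 had 0%, 6.92% and 5.47% at DIV1, 3.05%, 9.27% and 11.8% at DIV3, 15.8%, 4.75% and 11.4% at DIV5 and 7.48%, 3.12% and 0% at DIV7, with overlap between neighbouring days.

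The other recurrent members showed wide spreads within a day. Col23a1 had 3.82%, 21.1% and 14.5% at DIV1, 12.3%, 31.2% and 22.4% at DIV3, 15.7%, 19.9% and 15.1% at DIV5 and 9.48%, 8.88% and 5.28% at DIV7. The DIV5 libraries of Col23a1 lay above those of DIV7. Col6a6 stood at 2%, 9.48% and 11.9% at DIV1, 7.23%, 12% and 17.4% at DIV3, 15.9%, 4.18% and 9.12% at DIV5 and 2.17%, 4.75% and 2.52% at DIV7. For Col8a2 coverage was 4.5%, 24.2% and 25.1% at DIV1, 3.72%, 6.07% and 25.4% at DIV3, 14.2%, 3.13% and 13.7% at DIV5 and 2.43%, 0% and 17.3% at DIV7. Col4a1, with the same values at Col4a2, had 0%, 11.4% and 12.6% at DIV1, 6.17%, 8.02% and 12.8% at DIV3, 3.55%, 0% and 3.8% at DIV5 and 1.13%, 2.05% and 3.48% at DIV7. At Col6a6, Col8a2 and Col4a1 the libraries of DIV5 and DIV7 overlapped. Col13a1 had 2.72%, 15.1% and 5.63% at DIV1, 3.33%, 9.83% and 20.6% at DIV3, 7.38%, 1.4% and 15.6% at DIV5 and 3.22%, 0% and 0% at DIV7. Col5a1 stood at 0%, 8.23% and 10.2% at DIV1, 4.87%, 6.15% and 6.98% at DIV3, 22.2%, 4.47% and 5.87% at DIV5 and 8.23%, 6.62% and 16.6% at DIV7. For Col24a1 coverage was 0%, 13.5% and 6.27% at DIV1, 0%, 3.82% and 6.42% at DIV3, 6.4%, 12.5% and 19.6% at DIV5 and 4.65%, 2.13% and 9% at DIV7. In these 3 neighbouring days overlapped, and replicate 1 was at 0 on DIV1 in Col5a1 and Col24a1.

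Over all members, 27 of the 29 tested had a lower mean at DIV7 than at DIV1 with all deposited peaks (93.1%; median −4.93 percentage points), beside 78.5% of all tested promoters (median −3.07). After scaling to list length 16 of 29 were lower (55.2%; median −0.275), beside 59.3% of all (median −0.293). The DIV1 and DIV7 libraries did not overlap, with DIV7 lower, at 6 of the 29 members, among them Col12a1, Col1a1, Col26a1 and Col7a1, while 17.5% of all tested promoters showed this. From DIV5 to DIV7 this held for 10 of 29, against a background of 17.6%, and the 10 included Col18a1, Col26a1, Col7a1 and Lama1, each lower by more than 10 points.

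**Figure D3:**
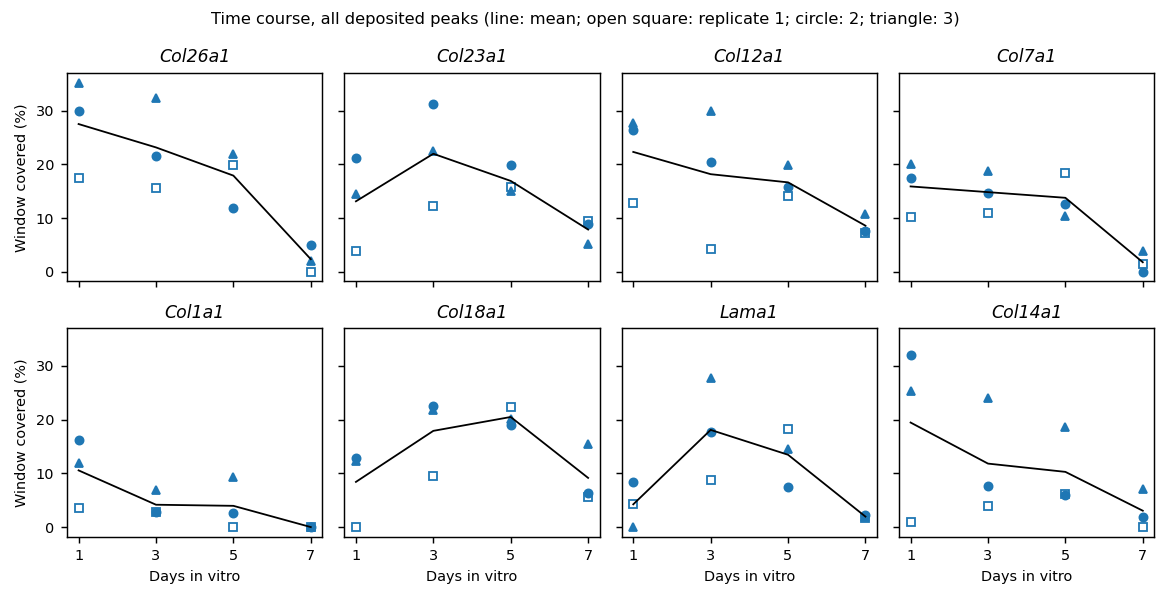
Coverage of the promoter window by all deposited peaks (vertical axis, percent) against days in vitro (horizontal axis) for 8 members, with one symbol per replicate and a line through the means. Col26a1 and Col7a1 are lowest at DIV7, Col1a1 reaches 0 in all 3 DIV7 libraries, the means of Lama1 and Col18a1 are higher at DIV3 and DIV5 than at DIV7, and replicate 1 (open squares) of DIV1 lies low at Col14a1 and Col18a1.

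The GSK-126 experiment asked which promoters hold the mark only while EZH2 is active. With all deposited peaks 7 of the 25 tested members were called lower (28.0%), close to the 26.7% of all 2385 tested promoters, and none was called higher. The 7 were the basement membrane genes Col18a1, Lama1 and Lama5, the fibrillar genes Col5a1 and Col24a1, the fibril-associated Col12a1 and the transmembrane Col13a1. The median difference was −5.11 percentage points for the members and −4.77 for all. The GSK-126 lists were shorter (1.07 to 2.00 Mb) than those of DMSO (3.29 to 4.23 Mb), and coverage was lower with GSK-126 at 87.4% of all tested promoters. The groups did not overlap, with GSK-126 lower, at 12 of 25 members, beside 46.0% of all tested promoters. The members' share was thus near the background in both counts. A promoter could enter this test through its DMSO libraries alone, and with coverage required in at least 1 library instead of 3, 5 of 30 members were called lower (Col12a1, Col13a1, Col18a1, Lama1 and Lama5), beside 7.38% of all 6330 promoters.

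With all deposited peaks Col18a1 and Lama1 fell furthest among the members. Coverage of Col18a1 was 16.6%, 18.6% and 20.98% with DMSO and 0%, 0% and 0% with GSK-126. Every DMSO library had a peak of 994 bp or longer and no GSK-126 library had any, a difference of −18.7 percentage points (95% interval −22.8 to −14.7, limma, adjusted p = 0.00238). Col18a1 met the minimum of 3 covered libraries through its DMSO libraries alone, and with a minimum of 1 library the adjusted p was 0.00242. For Lama1 the values were 18.9%, 14.03% and 23.1% with DMSO and 0%, 0% and 3.47% with GSK-126. All 3 GSK-126 libraries lay below the lowest DMSO library, with a difference of −17.5 percentage points (95% interval −23.7 to −11.3, limma, adjusted p = 0.00574). Col13a1 had 16.6%, 20.4% and 14.8% with DMSO and 3.62%, 5.25% and 0% with GSK-126. The groups did not overlap and differed by −14.3 percentage points (95% interval −19.6 to −9.02, limma, adjusted p = 0.00646). Coverage of Col12a1 was 13.4%, 9.2% and 11.5% with DMSO and 2.6%, 0% and 0% with GSK-126, again without overlap, and the difference was −10.5 percentage points (95% interval −14.8 to −6.22, limma, adjusted p = 0.00809).

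Lama5, Col24a1 and Col5a1 were also called lower. Lama5 had 14.5%, 8.23% and 12.1% with DMSO and 4.48%, 0% and 0.85% with GSK-126, a difference of −9.82 percentage points (95% interval −15.1 to −4.51, limma, adjusted p = 0.0203). Col24a1 had 15.4%, 6.57% and 16.1% with DMSO and 3.17%, 2.37% and 0% with GSK-126, a difference of −10.8 percentage points (95% interval −17.5 to −4.12, limma, adjusted p = 0.0321). Col5a1 had 9.77%, 14.1% and 10.5% with DMSO and 6.27%, 2.57% and 0% with GSK-126, a difference of −8.51 percentage points (95% interval −13.8 to −3.24, limma, adjusted p = 0.0321). None of these groups overlapped. When each of the 6 libraries was left out in turn, Lama1, Col13a1 and Col12a1 were called all 6 times. Col18a1 was tested in the 3 fits that kept all DMSO libraries and called in each (adjusted p = 0.00665 to 0.0168), since otherwise fewer than 3 libraries had coverage. Each of these fits dropped a GSK-126 library at 0%, so the difference stayed at −18.7 points. They do not show how far the Col18a1 call rests on any 1 DMSO library. Lama5 and Col24a1 were each called in 2 of 6 and lost the call without DMSO replicate 1 or 3 or GSK-126 replicate 2 or 3, where the adjusted p rose to at most 0.0739 and 0.102. Their differences over the 6 fits were −11.5 to −8.38 points for Lama5 and −13.9 to −9.12 points for Col24a1. Col5a1 was called in 1 of 6, the fit without GSK-126 replicate 1, with differences of −10.2 to −7.03 points and an adjusted p of at most 0.109. With coverage required in at least 1 library neither Col24a1 (adjusted p = 0.0820) nor Col5a1 (0.0640) was called. Without GSK-126 replicate 3 the called members were Col12a1, Col13a1, Col18a1 and Lama1.

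**Figure D4:**
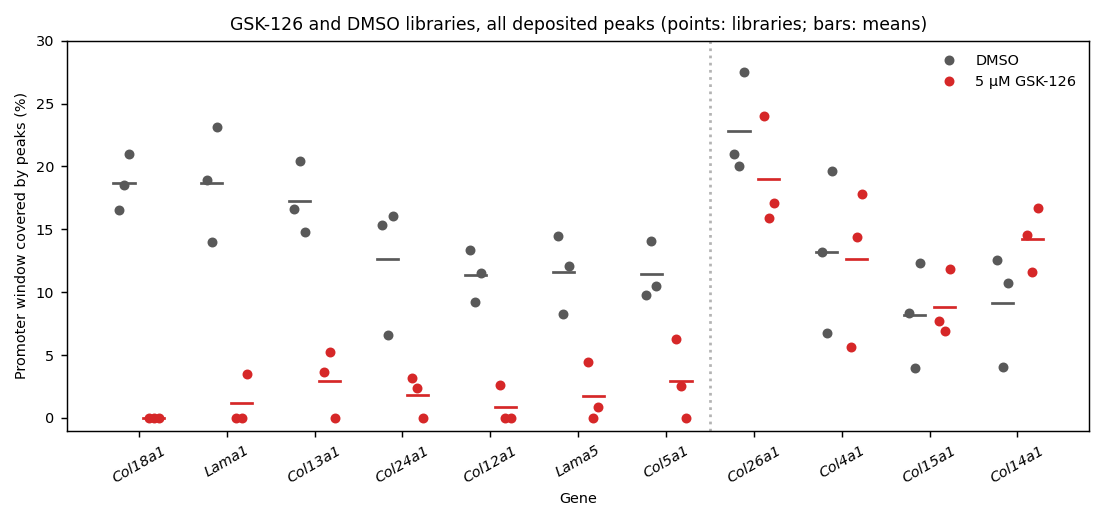
Coverage of the promoter window by all deposited peaks (vertical axis, percent) for 11 members (horizontal axis) in the 3 DMSO (grey) and 3 GSK-126 (red) libraries, with points for libraries and bars for means. Left of the dotted line are the 7 members called lower, where no GSK-126 library reaches the lowest DMSO library. To the right are 4 members whose groups overlap, with Col14a1 at 4.02% to 12.6% with DMSO and 11.6% to 16.7% with GSK-126.

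The other recurrent members were not called with all deposited peaks. Col14a1 had 12.6%, 4.02% and 10.7% with DMSO and 14.5%, 11.6% and 16.7% with GSK-126, a difference of 5.15 percentage points (95% interval −1.22 to 11.5, limma, adjusted p = 0.1903). The groups overlapped, and its strongest peak had a fold enrichment of 2.79, 2.81 and 2.64 with DMSO and 3.17, 3.40 and 3.14 with GSK-126. Col26a1 had 20.97%, 20.03% and 27.5% with DMSO and 24%, 15.9% and 17.1% with GSK-126, a difference of −3.83 percentage points (95% interval −10.9 to 3.26, limma, adjusted p = 0.3697). It overlapped between the groups and kept a peak in all 6 libraries. At the shared promoter of Col4a1 and Col4a2 they were 13.2%, 6.77% and 19.6% with DMSO and 5.68%, 14.4% and 17.8% with GSK-126, a difference of −0.6 percentage points (95% interval −10.6 to 9.38, limma, adjusted p = 0.927). The interval there spans losses and gains of about the same size, so no direction was resolved. Col23a1 had 15.4%, 15.2% and 7.73% with DMSO and 11.4%, 4.83% and 1.6% with GSK-126, with overlap. Col6a6 stood at 8.28%, 14.2% and 9.7% with DMSO and 6.95%, 0% and 3.97% with GSK-126. For Col9a2 coverage was 11.2%, 12.2% and 5.37% with DMSO and 4.53%, 2.43% and 0% with GSK-126, and for Col8a2 7.88%, 15% and 3.38% with DMSO and 1.87%, 0% and 3.05% with GSK-126. The libraries of Col6a6, Col9a2 and Col8a2 did not overlap, with GSK-126 lower, and none of these 4 members was called.

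Which members stood out depended on how the shorter lists were treated. After scaling coverage by list length, 1 of 25 members was called higher and 1 lower, beside 1.68% and 4.40% of all promoters, and the members' median was −1.06 percentage points against −0.271 for all. The member called lower was Col18a1, by −5.46 percentage points (95% interval −7.06 to −3.86, limma, adjusted p = 0.0295), and the one called higher was Col14a1, by 7.33 percentage points (95% interval 4.13 to 10.5, limma, adjusted p = 0.0381). Here too Col18a1 met the minimum of 3 covered libraries through its DMSO libraries alone, and a minimum of 1 library was not tried on this scale. Col26a1, at 6.61 points (adjusted p = 0.0512), and Lama1, at −4.79 points (0.0621), missed the threshold. Without GSK-126 replicate 3 neither Col14a1 (6.91 points, adjusted p = 0.0683) nor Col18a1 (−5.46 points, 0.0541) passed on this scale.

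Limiting each library to its strongest 1.07 Mb left 6 members to test. Of these Col14a1 was called higher, and no member was called lower, beside 2.45% and 4.37% of all 939 promoters. The limit cut the DMSO lists, of 3.29 to 4.23 Mb, more than the GSK-126 lists, of 1.07 to 2.00 Mb, so coverage here reads the rank of a peak within its list. Coverage of Col14a1 by these peaks was 0%, 0% and 0% with DMSO and 12.8%, 11.6% and 16.7% with GSK-126, a difference of 13.7 percentage points (95% interval 9.01 to 18.4, limma, adjusted p = 0.0223). It met the minimum of 3 covered libraries through the GSK-126 libraries alone. The call was lost with the replicate number as a block (adjusted p = 0.143) and was made with a minimum of 1 library (0.0212). The peaks of the DMSO libraries at this promoter ranked below the limit, while those of the GSK-126 libraries ranked above it for the most part. When each library was left out, Col14a1 was tested in 3 of the 6 fits and called in 0 (adjusted p = 0.0592 to 0.0649). Without any GSK-126 library, replicate 3 included, it was covered in fewer than 3 libraries and not tested. Lama1 was at 0%, 2% and 13.3% with DMSO and 0%, 0% and 3.47% with GSK-126 in this setting (adjusted p = 0.699), and the groups overlapped. Col18a1 was covered in 1 of the 6 libraries, a DMSO library, and not tested.

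**Figure D5:**
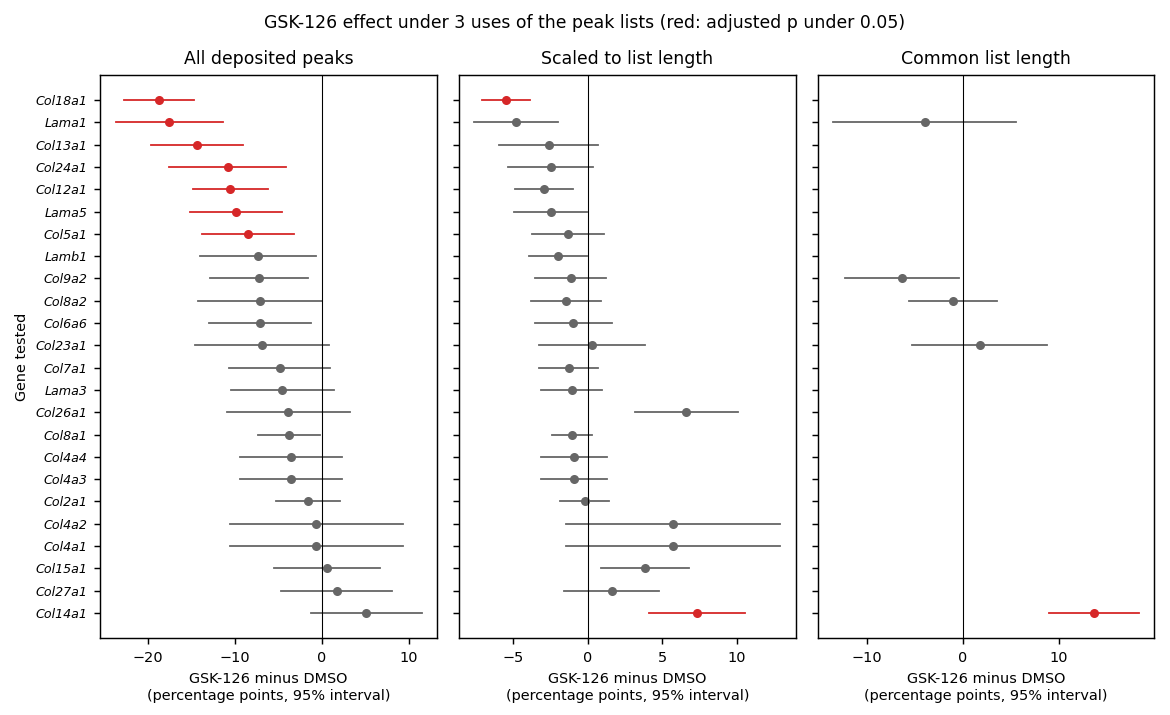
Difference in coverage between GSK-126 and DMSO (horizontal axis, percentage points with 95% intervals, each panel with its own scale) for tested members (vertical axis), from all deposited peaks, from coverage scaled to list length and from lists of a common length. Red marks an adjusted p under 0.05, with 7 members lower on the left, Col18a1 lower and Col14a1 higher in the middle and Col14a1 higher on the right.

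GSK-J4 was used to ask whether these promoters respond to inhibition of the demethylases. No member was called, with 25 tested from all deposited peaks and 17 at the common length of 1.40 Mb, beside 0% of all promoters in both. At an unadjusted p under 0.05 there were 0 and 1 members and 31 of 2034 and 73 of 1524 promoters. Coverage of Col18a1 was 19.2%, 25.1% and 19.7% with DMSO and 9.57%, 19.4% and 15.4% with GSK-J4, a difference of −6.57 percentage points (95% interval −13.99 to 0.848, limma, adjusted p = 0.999). The highest GSK-J4 library lay just above the lowest DMSO library, and at the common length the difference was −9.03 percentage points (95% interval −17 to −1.06, limma, adjusted p = 0.975). Lama1 had 14.6%, 8.83% and 15.7% with DMSO and 7.87%, 16.7% and 13.6% with GSK-J4, a difference of −0.317 percentage points (95% interval −7.65 to 7.02, limma, adjusted p = 0.999). Its groups overlapped. Col12a1 had 11.9%, 9% and 13.1% with DMSO and 9.9%, 0% and 6.33% with GSK-J4, a difference of −5.92 percentage points (95% interval −13 to 1.15, limma, adjusted p = 0.999). For Col14a1 coverage was 10.6%, 8.6% and 8.15% with DMSO and 13.9%, 4.58% and 14.7% with GSK-J4, a difference of 1.93 percentage points (95% interval −5.39 to 9.24, limma, adjusted p = 0.999). Both overlapped between the groups. Intervals of this width leave changes of several percentage points undetected.

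The other members named above overlapped between the groups in this experiment. Coverage of Col26a1 was 22.1%, 6.48% and 18.5% with DMSO and 14.5%, 3.02% and 21.2% with GSK-J4. Col23a1 stood at 8.8%, 5.37% and 6.85% with DMSO and 15.7%, 8.53% and 15.1% with GSK-J4. The mean of Col23a1 was higher with GSK-J4 and that of Col26a1 was lower, both within overlapping groups. Col6a6 had 10.2%, 6.27% and 1.58% with DMSO and 4.77%, 3.75% and 1.92% with GSK-J4. Coverage of Col9a2 was 3.78%, 9.13% and 20% with DMSO and 0%, 3.43% and 18.2% with GSK-J4. Col8a2 stood at 8.17%, 2.73% and 9.98% with DMSO and 2.5%, 2.9% and 11.6% with GSK-J4. These 3 had a lower mean with GSK-J4, again with overlap. Col4a1 had 7.92%, 8.5% and 5.98% with DMSO and 0.983%, 4.3% and 18.03% with GSK-J4. Coverage of Col13a1 was 15.4%, 8.8% and 15.4% with DMSO and 5.55%, 4.82% and 11.4% with GSK-J4. Lama5 stood at 5.53%, 8.33% and 11.5% with DMSO and 5.85%, 2.6% and 13.2% with GSK-J4. GSK-J4 replicate 3, the longest list of this experiment at 3.11 Mb, was the highest of its group at all 3 of these promoters. Col5a1 had 8.5%, 5.62% and 9.38% with DMSO and 0%, 6.58% and 6.83% with GSK-J4. Coverage of Col24a1 was 0%, 3.67% and 1.22% with DMSO and 2.92%, 4.27% and 12.5% with GSK-J4. That replicate was the highest of its group here too, and Col1a1 had no peak in any of the 6 libraries.

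The effects of the inhibitors were compared by an interaction over the 12 inhibitor and DMSO libraries. The compounds differed in dose and target, so this compares the treatments as given. Since the GSK-J4 dose may not have blocked the demethylases, it does not compare loss of EZH2 activity with loss of demethylase activity. With all deposited peaks Lama1 was the single member called of 26, beside 3.57% of all promoters called lower. Its difference with GSK-126 minus that with GSK-J4 was −17.2 percentage points (95% interval −26.3 to −8.12, limma, adjusted p = 0.0485). It was called in 2 of the 12 fits that left out a library (adjusted p = 0.0209 to 0.127), and was not called with the replicate number as a block (0.103) or with coverage required in at least 1 library (0.118). Scaled to list length the difference was −4.72 points (adjusted p = 0.449), and at the common length −4.23 points (0.857). For Col18a1 it was −12.1 percentage points (95% interval −19.8 to −4.42, limma, adjusted p = 0.0771) and for Col24a1 −15.8 percentage points (95% interval −25.04 to −6.46, limma, adjusted p = 0.0636) with all peaks. At the common length none of 21 members was called, beside 1.30% of all promoters, and 1 had an unadjusted p under 0.05, Col14a1 at 14.9 points (adjusted p = 0.282).

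Other genes of the matrix were followed in 4 lists. A peak in any library was found at 18 of 22 basement membrane and matrix glycoproteins, 9 of 12 proteoglycans, 15 of 22 enzymes of collagen processing and crosslinking and 9 of 15 receptors of collagen and laminin. With GSK-126 and all deposited peaks, 6 of 13 tested glycoproteins were called lower, 3 of 4 proteoglycans, 5 of 11 processing enzymes and 2 of 5 receptors, and none higher, beside the 26.7% of all promoters. The glycoprotein with the smallest adjusted p was Fbn2, a fibrillin of developing microfibrils (−21.0 percentage points, limma adjusted p = 0.00238), followed by Thbs1, a thrombospondin (−13.0 points, 0.00814), Fbn1 (−15.7 points, 0.0107) and Nid2, a nidogen that links laminin to collagen IV (−18.3 points, 0.0122). Vcan, the core protein of versican, differed by −12.8 points (0.00484), Adamts3, which removes procollagen propeptides, by −13.7 points (0.00570), and the collagen receptor subunits Itga11 and Itga1 by −18.0 points (0.00456) and −11.8 points (0.00478). The 3 called proteoglycans (Vcan, Gpc3 and Bcan), Adamts3 and Mmp14 were at 0% in every GSK-126 library. They met the minimum of 3 covered libraries through their DMSO libraries alone. Whether their calls hold with a minimum of 1 library is not given here. After scaling, Fbn2, Adamts3, Mmp14 and Vcan were called lower and Lox, a collagen crosslinking oxidase, higher (8.42 points, adjusted p = 0.0476). The same limit holds there for Adamts3, Mmp14 and Vcan. At the common length none of these lists had a call. From DIV1 to DIV7 none was called at the common length or with all deposited peaks, and Egflam (5.57 points, adjusted p = 0.0485) and Vcan (3.64 points, 0.0272) were called higher after scaling. Among vascular and meningeal markers Kdr and Cldn5 were called lower with GSK-126, 2 of 3 tested, from all deposited peaks. Kdr was at 0% in all 3 GSK-126 libraries and was tested through its DMSO libraries alone.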

How the data were processed

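H3K27me3 was profiled in 24 CUT&RUN libraries (Active Motif antibody, CUTANA kit, paired-end reads of 50 bp), grouped by the titles given to GEO. Per the labels and methods, reads were checked with FastQC, trimmed with Trimmomatic 0.38 and aligned to mm10 with STAR 2.7.2b, and broad peaks were called per library with MACS2 2.1 at an FDR of 0.1. The control used for calling is not given in the sources used here. The authors also used bedtools 2.25.0 and DESeq2 1.36.0, the latter on read counts, which were not used here. The deposited fold enrichment is a ratio of signal over the caller's background. The authors deposited −log10 p and −log10 q of each peak within its library. The peak score was not used. Some items are not reported here.

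Coverage of 6 kb windows was computed here from these peaks in 3 ways: from all deposited peaks, from all peaks with coverage multiplied by the shortest list's length over the library's own, and from the peaks of lowest p up to the shortest list (1.11 Mb over time, 1.07 Mb for GSK-126, 1.40 Mb for GSK-J4 and 1.07 Mb for both inhibitors). The last is the main setting. It measures relative, not absolute, levels, and a true fall at most promoters would be reduced by it. Promoters with coverage in at least 3 libraries were tested with limma 3.58.1 in R 4.3.3 (lmFit, robust eBayes, two-sided) over all protein-coding promoters, with Benjamini-Hochberg adjustment and a threshold of 0.05. The procedure was tested on simulated data. Other steps used Python 3.11.15, pandas 2.3.3, numpy 2.4.6 and matplotlib 3.10.9. Since the deposited lists hold no counts, precision is given by the spread of 3 libraries.

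Members, gene lists and tests were chosen with earlier results of these data known. Values by library are given for members called in any comparison, Col14a1, the 10 most recurrent members and members whose GSK-126 and DMSO libraries stood 10 points apart without overlap. Of the other lists up to 4 called genes, those of smallest adjusted p, are named per list. Col7a1 and Col15a1 were named after their values were seen, and so were genes named only for how many libraries held a peak. Scaling to list length, alone or without GSK-126 replicate 3, and the block, the left-out libraries and the minimum of 1 library with all deposited peaks were chosen after seeing the data. Further alternatives were windows of 1 kb or around all transcript starts, a stricter peak threshold (−log10 q of 2), peaks ranked by their fold enrichment, a filter of 1 library, the replicate number as a block, and leaving out single libraries or replicate 1 of every day.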

Additional observations from a re-analysis of the deposited data

Results flagged for a closer look

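The effect of GSK-126 on Lama1, minus that of GSK-J4, was −17.2 percentage points with all deposited peaks, and was singled out because the interaction tests the difference between the inhibitors itself (limma adjusted p = 0.0485). Coverage was 18.9%, 14.03% and 23.1% with DMSO and 0%, 0% and 3.47% with GSK-126, and 14.6%, 8.83% and 15.7% with DMSO and 7.87%, 16.7% and 13.6% with GSK-J4. GSK-126 lists were shorter than their DMSO lists, while GSK-J4 lists were 1.40, 1.62 and 3.11 Mb long against 1.70 to 2.08 Mb with DMSO. Scaled to list length the difference was −4.72 points (adjusted p = 0.449). Over the 12 fits that left out a library the adjusted p ranged from 0.0209 to 0.127. Without GSK-126 replicate 3 it was −18.4 points (adjusted p = 0.0867), and the adjusted p was 0.103 with the replicate number as a block.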

How the results depend on the processing

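At the common list length 0 members were called in each comparison but GSK-126 against DMSO, where 1 was (Col14a1). That comparison gave 7 members with all deposited peaks, 0 with ranking by fold enrichment, 0 with the replicate block, 2 with scaling to list length and 0 with scaling and without GSK-126 replicate 3. At a −log10 q of at least 2 no member could be tested there. From DIV1 to DIV7 scaling gave 1 (Col1a1), and the interaction gave 1 with all deposited peaks (Lama1). Leaving out each library in turn gave 0 to 1 members from DIV1 to DIV3 (Col12a1 without DIV1 replicate 1), 0 to 1 from DIV5 to DIV7 (Col9a2 without DIV5 replicate 1), 0 to 2 from DIV1 to DIV7 (Col12a1 among them, without DIV1 replicate 1) and 0 to 0 for GSK-126. With all deposited peaks these ranges were 0 to 8 from DIV1 to DIV7, 3 to 7 for GSK-126 and 0 to 3 for the interaction. The low of 3 came without DMSO replicate 1 (Col12a1, Col13a1 and Lama1). Deviations of same-numbered libraries from their group means were weakly correlated (−0.0688 to 0.157). Of the libraries, 6 of 6 in the GSK-J4 experiment, 5 of 12 in the time course and 3 of 6 in the GSK-126 experiment correlated best with their own number. Correlations this small do not settle whether the replicate numbers pair the libraries. The replicate number as a block, with all deposited peaks, gave 8 members for GSK-126 (Col9a2 added), 1 from DIV1 to DIV7 (Col26a1) and 0 for the interaction. A minimum of 1 covered library, with all deposited peaks, gave 5 for GSK-126 and 0 for the interaction. These 5 of 30 members stood beside 7.38% of all 6330 promoters. The 8 of 29 from DIV1 to DIV7 without DIV1 replicate 1 stood beside 19.3% of 3495. For the block and the other left-out libraries the share over all promoters is not given. Those counts are therefore not read as particular to the members. With a −log10 q of at least 2 the members with a peak in a group fell to 8, 12, 8 and 4 at DIV1, DIV3, DIV5 and DIV7, to 4 and 5 with DMSO and GSK-126 and to 6 and 11 with DMSO and GSK-J4. In all, 141 of the recomputed counts of members kept within 1.5 times the first value and 43 did not. A count of 0 that stayed at 0 was taken as kept, and this holds for most of the 141. The tally therefore does not measure how stable the calls were. Among the recomputed differences of members called for GSK-126 or the interaction none reversed, but members below the minimum of 3 covered libraries were not compared. At the common length Col5a1, Col24a1 and Col13a1 were such members, at 0% in all 3 DMSO libraries. With GSK-126 they had 6.27%, 2.57% and 0% (Col5a1), 3.17%, 2.37% and 0% (Col24a1) and 0%, 5.25% and 0% (Col13a1). The direction there was opposite to that of their calls with all deposited peaks. Col26a1, which was not called, went from −3.83 to 6.61 points with GSK-126 after scaling. Depth is unknown, and a peak called in 1 library and not in another may differ by little in signal.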
